A study of Homo sapiens with 6 samples.

Results

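The insulin-like growth factor (IGF) binding proteins are a family of 7 human genes, IGFBP1 to IGFBP7, and were described here in 3 established glioblastoma cell lines. They were found as the probe sets annotated to these 7 symbols among all probe sets of the array. A single-symbol probe set was found for 6 of the 7 genes, out of 18417 genes so named. The probe set for IGFBP6 is annotated to IGFBP6 and C12orf57 together, so its signal cannot be assigned to either gene. Each of these 7 probe sets was the sole one for its gene. Membership follows the gene symbols, but the family was chosen by its measured levels in the 3 lines, above all that of IGFBP5 in T98G. Levels by line are therefore given as a description, with no test.

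RNA came from A172, T98G and U87MG cells transfected with a precursor of miR-338-5p (the mimic) or with a negative control, and harvested 24 hours later. Cells of both groups were grown in medium with fetal bovine serum and all were transfected. Each line gave 1 mimic array and 1 control array, 6 Affymetrix Human Gene 1.0 ST arrays in all, so each group held 3 arrays. According to the deposited design, the arrays were run to find genes targeted by miR-338-5p. Values are log2 expression from RMA, a method that corrects background, normalizes across arrays and summarizes probes. A difference of 1 on this scale is a 2-fold difference in signal. The 2 arrays of a line differ in treatment, so the difference between them is a single value that mixes treatment with array error and is no replicate error. The spread between replicates of a line is not known, and the labels do not say whether cultures were separate.

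IGF binding proteins are secreted and hold IGF1 and IGF2 in blood and tissue fluid, where they can keep the growth factors from the IGF1 receptor, extend their life or release them near cells. IGFBP3 and IGFBP5 can form a larger complex with a growth factor and the acid labile subunit IGFALS, and several members act on cells without binding a growth factor. IGFBP4 is mainly an inhibitor and is cut by the protease PAPPA, IGFBP6 prefers IGF2, and IGFBP1 is a liver product held down by insulin. IGFBP7 binds IGFs weakly. IGFBP2 is known for high levels in glioblastoma tissue.

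The transfected precursor gives rise to the mature strand below, shown because it is the agent of the comparison. The sequence is that of RefSeq (GRCh38.p14, chr17:81125923-81125944, minus strand), with the seed, bases 2 to 8 from the 5′ end, in capitals. The seed is the stretch by which a microRNA mainly recognizes messenger RNAs.
miR-338-5p: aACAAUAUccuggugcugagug

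IGFBP5, IGFBP4 and IGFBP3 had the widest lead of T98G over another line, and each has 1 start in the RefSeq promoter table. The 100 bases before these starts are shown because they carry the region where basal transcription factors bind. They lie at chr2:216695550-216695649 on the minus strand for IGFBP5, at chr17:40443350-40443449 on the plus strand for IGFBP4 and at chr7:45921273-45921372 on the minus strand for IGFBP3 (GRCh38.p14). Capitals mark matches to TATA-like motifs and, in IGFBP5, to GCCNNNGGC, a form of the AP-2 binding motif.
IGFBP5: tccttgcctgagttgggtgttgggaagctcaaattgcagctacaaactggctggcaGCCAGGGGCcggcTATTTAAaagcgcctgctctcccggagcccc
IGFBP4: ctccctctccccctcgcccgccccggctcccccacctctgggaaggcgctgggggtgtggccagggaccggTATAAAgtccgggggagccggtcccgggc
IGFBP3: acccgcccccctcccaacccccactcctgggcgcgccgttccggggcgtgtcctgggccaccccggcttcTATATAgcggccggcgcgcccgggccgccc

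Each of these 3 promoters had a TATA-like match at a similar place. It began 31 bases before the start in IGFBP5 (TATTTAA), 29 in IGFBP4 (TATAAA) and 30 in IGFBP3 (TATATA). Searched on both strands, TATAAA was present in 4.99% of 35116 promoter windows of this length, TATTTAA in 1.47%, TATATA in 1.65% and GCCNNNGGC in 9.63%. These motifs were chosen after the sequences were read, so a match in each was fixed in advance and nothing is read from it. The shares count a match anywhere in a window, not at a given distance from the start. The GC content was 59% in IGFBP5, 76% in IGFBP4 and 79% in IGFBP3, against a median of 60% over all windows. The same window of IGFBP6 held GCCNNNGGC in 2 overlapping places and none of the TATA-like forms searched. Directly after these places it held tacttaa, which is close to TATTTAA but was not among the forms searched. The 3 windows listed for IGFBP2 held none of the 4 motifs. No window was listed for IGFBP1 or IGFBP7, so the family was not compared as a whole.

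Over all probe sets, Pearson r was 0.992 to 0.993 between the arrays of a line and 0.954 to 0.962 between those of different lines. Of 9 glial markers, GFAP, NES, VIM, CD44 and SOX9 stood above the filter level of 4.28 on all arrays, while S100B and FABP7 were below it on all. GFAP, from 5.07 to 5.39, was close to the array medians over all probe sets, which were from 5.06 to 5.14. The filter level is the mean signal under which the dimmest 25% of genes lay. Of the markers of other cell types, 0 of 3 oligodendrocyte genes and 0 of 4 endothelial genes were above it on all arrays. So were 1 of 5 leukocyte genes (CD68), 2 of 4 epithelial genes, 3 of 5 neuronal genes and 3 of 5 fibroblast and pericyte genes. These levels differed by line: the median epithelial level was 7.58 and 7.29 on the mimic and control arrays of A172, and from 4.73 to 5.05 in the other lines. The fibroblast and pericyte median was likewise at least 6.98 in A172, and at most 5.41 elsewhere. Neither list moved as a whole. KRT8 and KRT18 were highest in A172, while EPCAM was at most 4.98 and CDH1 at most 4.35 on any array. COL3A1 was highest in A172 (9.84 and 9.72), but COL1A1 (8.39 and 8.46) and LUM were highest in U87MG. PDGFRB was highest in T98G (8.28 and 8.33), and DCN was below the filter level on all arrays. Whether such marker differences play a part in the IGFBP levels was not tested.

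IGFBP5, a binding protein that also attaches to extracellular matrix, was the member that differed most between lines. Its probe set read 10.75 and 10.97 in T98G (mimic, then control), 4.27 and 4.41 in U87MG, and 5.14 and 4.83 in A172. T98G stood far above both other lines, and the U87MG mimic array lay just under the filter level. The T98G mean exceeded that of U87MG by 6.53, a 92.2-fold difference in signal, and that of A172 by 5.88, or 58.9-fold. RMA compresses differences near background, so these folds rest on low values in the other lines. The mean of A172 was the higher of the low pair, by 0.65. The arrays of A172 and U87MG were 0.42 apart at the nearest, and the largest difference within a line was 0.31. Without replicates of a line, this does not settle the order of the low pair.

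Between its lowest T98G array and the highest array of another line, IGFBP5 left a gap of 5.62, or 49.1-fold. Over the 13813 genes above the filter, T98G led both other lines by at least 1 in 1.93%. IGFBP5 ranked 3 among them, after CDH6, a cadherin, at 6.66 and GABRA2, a GABA-A receptor subunit, at 5.99. PI15, at 5.38, and CXCL12, at 5.10, came next, chosen, like CDH6 and GABRA2, after their values were seen. On control arrays alone the IGFBP5 gap was 6.14.

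**Figure D1:**
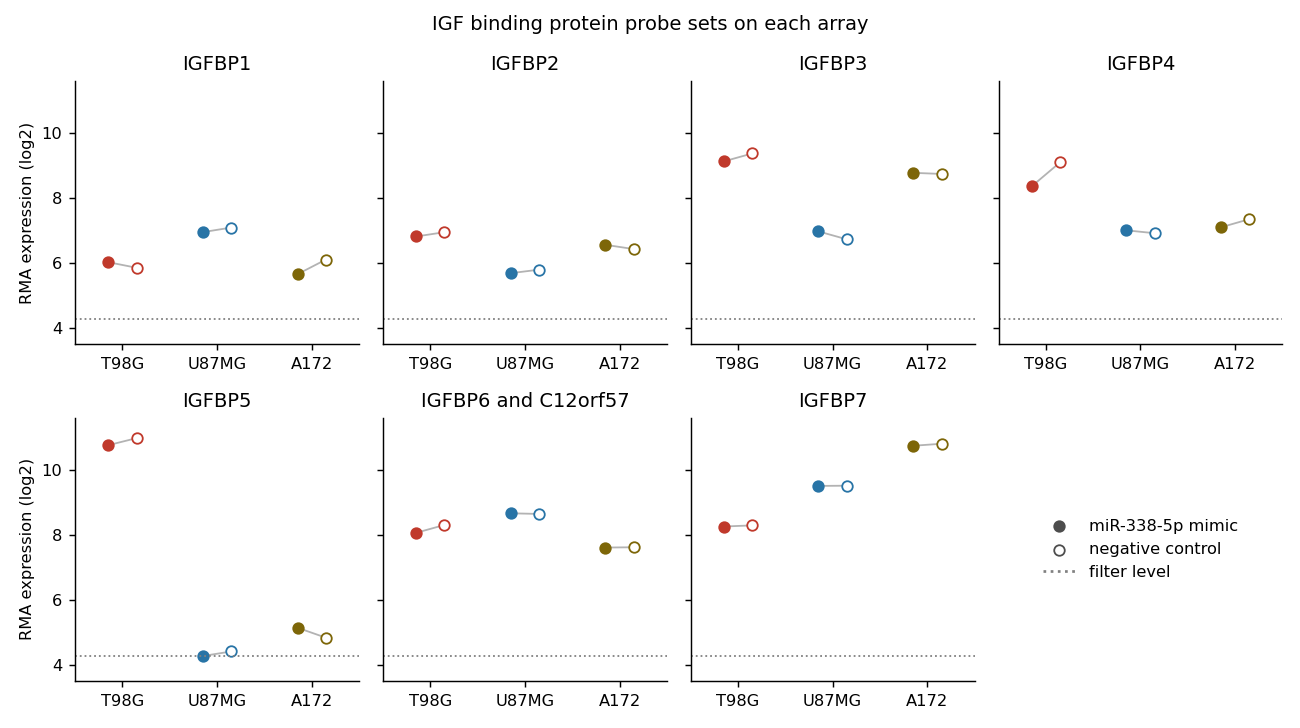
RMA expression (log2, vertical axis) of each IGF binding protein probe set in T98G, U87MG and A172, with filled points for the mimic array, open points for the control array and a dotted line at the filter level of 4.28. IGFBP5 stands at 10.75 and 10.97 in T98G and at 5.14 or lower elsewhere, while IGFBP7 runs the other way, with A172 highest.

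IGFBP3, the main IGF carrier of blood serum, was also highest in T98G, at 9.13 with the mimic and 9.37 with the control. It read 6.97 and 6.73 in U87MG, and 8.78 and 8.74 in A172. The line that stood apart was U87MG, which was low. T98G exceeded U87MG by 2.40 (5.28-fold) and A172 by 0.49. The nearest arrays of T98G and A172 were 0.35 apart, against at most 0.24 between arrays of 1 line. Without replicates of a line, the order of T98G and A172 is not settled.

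IGFBP4, the inhibitor cut by PAPPA, read 8.36 and 9.10 in T98G, 7.01 and 6.92 in U87MG, and 7.10 and 7.35 in A172. Both T98G arrays were above all others. The T98G signal exceeded that of U87MG 3.40-fold, a difference of 1.77, and that of A172 2.83-fold. U87MG and A172 were only 0.09 apart at their nearest, less than the 0.25 between the arrays of A172, so their order is not settled. The mimic array of T98G was lower than its control array by 0.74, the widest difference within a line for any member.

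IGFBP2, a member abundant in fetal brain and in glioma, had a narrower range. It read 6.82 and 6.95 in T98G, 5.69 and 5.79 in U87MG, and 6.56 and 6.43 in A172. The lines did not overlap, with T98G above U87MG by 1.14 (2.21-fold) and above A172 by 0.39. IGFBP2 and IGFBP5 lie next to each other on chromosome 2. The order of line means was the same for both, T98G, then A172, then U87MG, as it was for IGFBP3 and IGFBP4 on other chromosomes. For IGFBP3, IGFBP4 and IGFBP5 part of this order is not settled, as said above.

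IGFBP1 was the member highest in U87MG. It read 6.02 and 5.85 in T98G, 6.95 and 7.09 in U87MG, and 5.65 and 6.11 in A172. T98G and A172 overlapped. T98G was below U87MG by a difference of -1.08, and U87MG exceeded A172 by 1.14 (2.20-fold).

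IGFBP7, the weak IGF binder, which is also made by vessels of brain tumours, was highest in A172. It read 8.25 and 8.29 in T98G, 9.50 and 9.51 in U87MG, and 10.74 and 10.80 in A172. The 3 lines were evenly spaced, and the arrays of a line differed by no more than 0.06. The difference of T98G from A172 was -2.50, a 5.65-fold lower signal, and that of T98G from U87MG was -1.24. Of the 4 endothelial markers, PECAM1 and VWF were below the filter level on all arrays. CDH5 read 4.44 and 4.24 in T98G, 4.17 and 4.30 in U87MG, and 4.54 and 4.37 in A172, and KDR read 3.43 and 3.16 in T98G, 5.89 and 5.71 in U87MG, and 3.58 and 3.65 in A172. Their part in the IGFBP7 levels was not tested.

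The probe set shared by IGFBP6 and C12orf57 read 8.06 and 8.30 in T98G, 8.66 and 8.64 in U87MG, and 7.60 and 7.61 in A172. U87MG was highest and A172 lowest, without overlap. The difference of U87MG from A172 was 1.04, and that of T98G from A172 was 0.57.

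Across the 6 members with a probe set of their own, 4 had their highest mean in T98G, 1 in U87MG and 1 in A172. In all 6 the highest line lay clear of both others, as it did in 65.9% of all tested genes. In 3 of them, IGFBP5, IGFBP7 and IGFBP4, the lead was at least 1, against 6.9% of all tested genes; IGFBP4 was just inside this bound at 1.01 and IGFBP1 the nearest outside at 0.84. No overlap between any lines was seen for 5 members, and for 46.8% of all genes. The median range of line means was 2.08 over the members and 0.54 over all tested genes. The pattern of the levels proposed the family, so nothing is read from these counts.

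**Figure D2:**
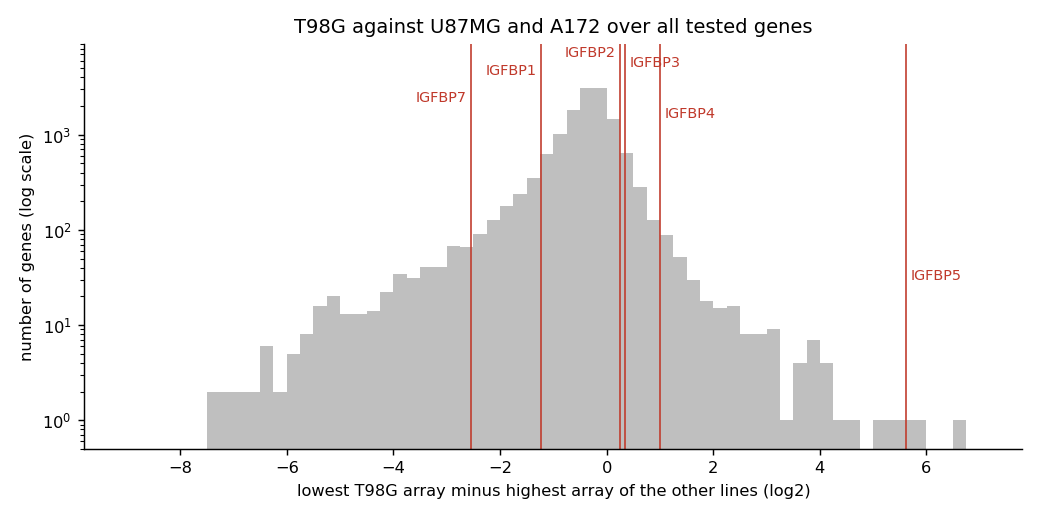
Number of tested genes (vertical axis, log scale) by the lowest T98G array minus the highest array of the other lines (horizontal axis, log2), with vertical lines at the 6 members that have a probe set of their own. IGFBP5 lies at 5.62 in the far right tail, IGFBP4, IGFBP3 and IGFBP2 between 0.26 and 1.01, and IGFBP1 and IGFBP7 below 0.

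Of 434 other tested genes with a range over the arrays of at least 3.35, those most like IGFBP5 over the 6 arrays were EPHX1, CYP4F11, COLEC12, IQGAP2, SLPI and LYPD6B. Their Pearson r with IGFBP5 was between 0.996 and 0.999. The 6 arrays share 3 lines, so this likeness amounts to being high in T98G and low in both others, and r is given as a description. EPHX1, an epoxide hydrolase that clears reactive chemicals, averaged 10.17 in T98G, 6.84 in U87MG and 7.23 in A172. CYP4F11, a fatty acid hydroxylase, averaged 9.81 in T98G, 4.67 in U87MG and 5.27 in A172. SLPI, a secreted protease inhibitor, averaged 8.94 in T98G, 4.21 in U87MG and 4.77 in A172. T98G led by 3.99 in COLEC12, a scavenger receptor, by 4.15 in IQGAP2, a scaffold protein, and by 3.13 in LYPD6B. COLEC12 averaged 3.85 in U87MG and 3.96 in A172, and IQGAP2 averaged 3.18 and 3.64. These means are below the filter level of 4.28, so both genes passed the filter only through T98G. In U87MG the means of SLPI and LYPD6B were also below it.

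The nearest measured genes were read on each side of a member, up to 2 per side. Genes without a single-symbol probe set were passed over, so a whole neighbourhood was not covered. There were 7 of them between IGFBP2 and RPL37A, 7 between IGFBP5 and TNP1, and 17 between IGFBP3 and TNS3. Around the IGFBP2 and IGFBP5 pair, RPL37A, a ribosomal protein gene, was nearly level between lines, at 8.07 in T98G, 7.85 in U87MG and 7.75 in A172. SMARCAL1, a DNA annealing helicase, averaged 7.31 in T98G, 7.81 in U87MG and 7.94 in A172. On the other side TNP1, a sperm nuclear protein gene, had means below the filter level in every line, and TNS1, which encodes tensin 1, averaged 4.63 in T98G, 5.10 in U87MG and 6.32 in A172. Of these neighbours, IGFBP2 and RPL37A had T98G as the highest line, by gaps of 0.26 and 0.11, against 5.62 for IGFBP5.

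The IGFBP1 and IGFBP3 pair on chromosome 7 showed opposite orders: U87MG was highest for IGFBP1 and lowest for IGFBP3. TNS3, the tensin gene that is the next measured gene after IGFBP3, had the order of IGFBP3, with means of 9.18 in T98G, 5.25 in U87MG and 8.20 in A172. T98G exceeded U87MG by 3.94 in TNS3, a wider difference than the 2.40 of IGFBP3. On the far side ADCY1, an adenylyl cyclase, averaged 5.85 in T98G, 4.95 in U87MG and 5.87 in A172. RAMP3, a receptor accessory protein, and the noncoding LINC00525 ranged by 0.37 and 0.50 between lines.

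Of the genes beside IGFBP4, CCR7 was highest in T98G, by a gap of 0.10, against 1.01 for IGFBP4, and in TOP2A, GJD3 and TNS4 no line lay above both others on all its arrays. TOP2A, a DNA topoisomerase of dividing cells, averaged 10.02 in T98G, 10.01 in U87MG and 9.90 in A172. TNS4, another tensin gene, averaged 4.87 in T98G, 4.92 in U87MG and 4.93 in A172. For GJD3, a gap junction gene, and CCR7, a chemokine receptor gene, T98G minus A172 was -0.07 and 0.33. Around IGFBP7, POLR2B, an RNA polymerase subunit gene, was at 9.57 in T98G, 9.73 in U87MG and 9.73 in A172. NOA1 was at 7.37, 7.21 and 6.89 in the same lines. On the other side, past 22 and 38 unmeasured genes, the means of ADGRL3 and TECRL were below the filter level in every line. ADGRL3 was highest in A172, as IGFBP7 was, at 3.96 against 2.49 in T98G and 2.13 in U87MG. Its A172 mimic array, at 4.36, was above the filter level. Beside IGFBP6, SPRYD3 was highest in U87MG, as was the probe set shared with C12orf57, TNS2 was highest in A172, CSAD was highest in T98G by a gap of 0.17, and the means of SOAT2 were below the filter level in every line.

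**Figure D3:**
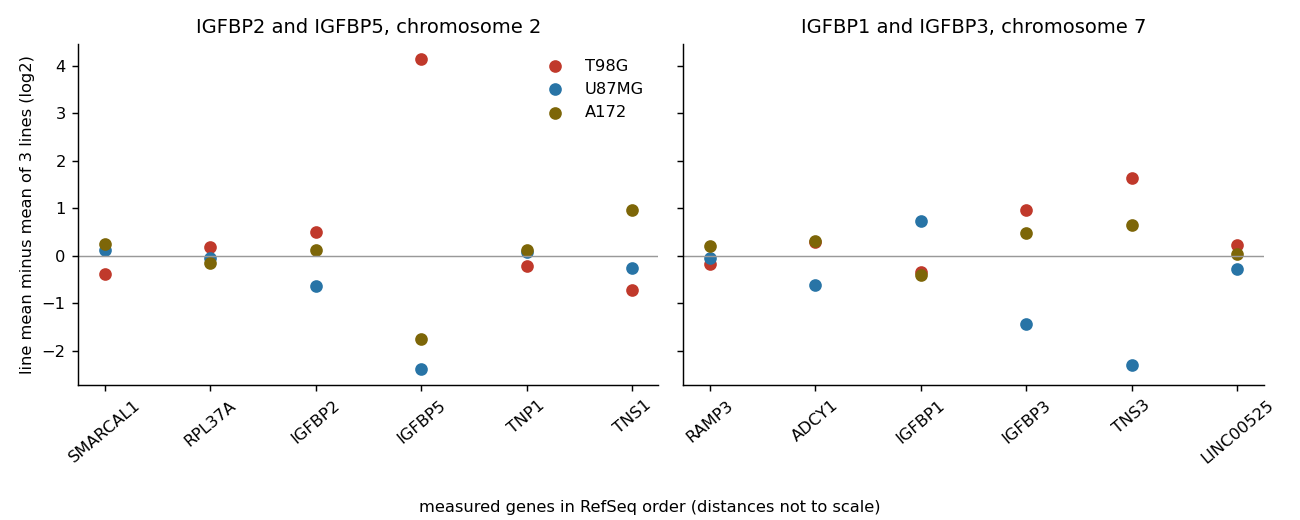
Mean of each line minus the mean of the 3 lines (log2, vertical axis) for measured genes in RefSeq order around IGFBP2 and IGFBP5 (left) and around IGFBP1 and IGFBP3 (right). T98G is far above both other lines in IGFBP5 and not in the nearest measured genes, while TNS3 has the same order of lines as IGFBP3.

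The mimic was followed by no change of an IGF binding protein that passed the test. With limma's fit over 13813 genes and the line as a block, 0 of 6 members passed at an adjusted p under 0.05, and 0 had an unadjusted p under 0.05. Over all genes 1.11% passed, 153 in number, and 11.8% had an unadjusted p under 0.05. The median change was -0.04 over the members and 0.01 over all genes. The mean change was negative in 5 of the 6 members.

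IGFBP4 had the lowest p of the members. It averaged 7.49 with the mimic and 7.79 with the control, a change of -0.30 ± 0.42 (SD, n = 3 lines; limma adjusted p = 0.503). The difference was -0.74 in T98G, 0.09 in U87MG and -0.25 in A172. T98G thus carried most of it, with a signal 1.67-fold lower on the mimic array. In T98G 0.666% of all genes had a difference as low as that of IGFBP4, and 2.24% had one of -0.5 or lower. The IGFBP4 difference was picked out as the widest of any member. Without the T98G arrays the mean change was -0.08. The 95% interval of the mean ran from -0.66 to 0.06.

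IGFBP1 changed by -0.14 ± 0.31 (SD, n = 3; limma adjusted p = 0.72), with 0.17 in T98G, -0.14 in U87MG and -0.45 in A172. The lines fell on either side of 0. IGFBP5 changed by -0.02 ± 0.28 (adjusted p = 0.973 with limma), with -0.22 in T98G, -0.14 in U87MG and 0.31 in A172. In U87MG and A172 its signal was near the filter level, where small differences say little. In T98G, where it was high, the difference of -0.22 can be set beside a median size of 0.13 over all genes there.

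IGFBP3 changed by 0.01 ± 0.24 (limma adjusted p = 0.98), the differences being -0.24 in T98G, 0.24 in U87MG and 0.03 in A172. IGFBP2 changed by -0.04 ± 0.15 (limma adjusted p = 0.909), with -0.13, -0.11 and 0.13 in the same lines. Neither gene had the same sign in all lines. IGFBP7 was the steadiest, with a change of -0.03 ± 0.03 (limma adjusted p = 0.893) and values of -0.03, -0.01 and -0.06. The shared probe set of IGFBP6 and C12orf57 differed by -0.24 in T98G, 0.02 in U87MG and -0.01 in A172, and was not tested.

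The 95% intervals of the mean change, each for a single gene, were as follows. For IGFBP7 the mean change lay between -0.20 and 0.14, for IGFBP2 between -0.24 and 0.17 and for IGFBP3 between -0.24 and 0.26. For IGFBP5 it lay between -0.29 and 0.26 and for IGFBP1 between -0.43 and 0.15. A mean 2-fold change is thus outside the interval of every tested member, IGFBP4 included, whereas smaller changes lie within it. Signs were mixed between lines in 5 of the 6 members and in 65.7% of all tested genes.

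**Figure D4:**
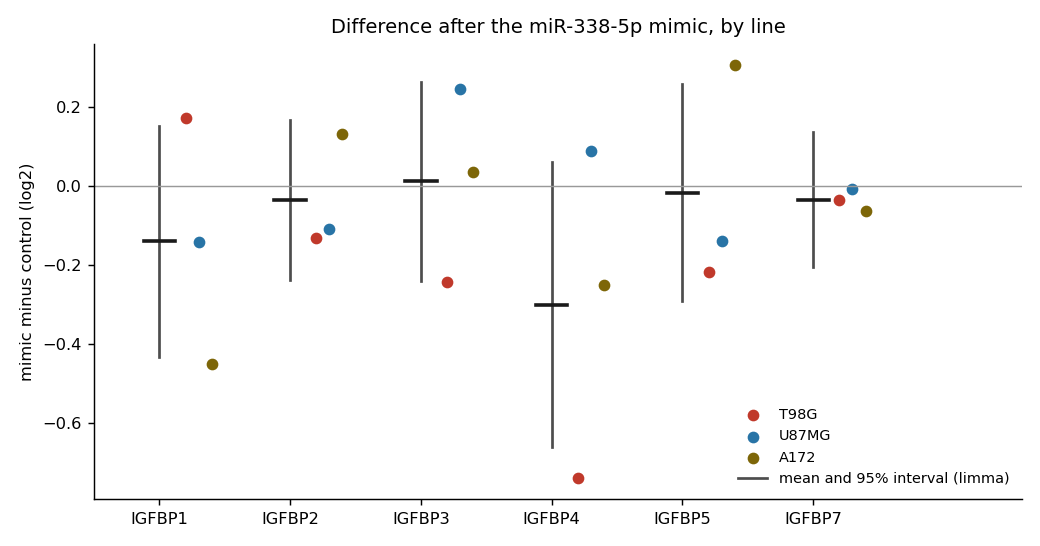
Mimic minus control (log2, vertical axis) for the 6 tested IGF binding proteins, with a coloured point for each line and, to its left, the mean over the lines with limma's 95% interval. Every interval includes 0, and the lowest point is IGFBP4 in T98G at -0.74.

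The other genes of the pathway were taken as 5 lists by role, 60 genes in all, of which 44 were tested, 9 lay below the filter and 7 had no single-symbol probe set. With limma, 0 of the 44 passed, against 1.11% of all tested genes, a share that also stands beside the counts per list below. An unadjusted p under 0.05 was seen for 3 (STC2, PIK3CB and IGFBPL1), against 11.8% of all tested genes. The lists' median changes were between -0.05 and 0.02.

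Of the ligands, IGF1 was below the filter level on every array, between 2.84 and 3.24, and IGF2 had no single-symbol probe set. Of the receptors, IGF1R, the signalling receptor for IGF1 and IGF2, averaged 7.54 in T98G, 7.01 in U87MG and 7.64 in A172, with T98G and A172 overlapping. IGF2R, which clears IGF2 from the cell surface, averaged 8.46 in T98G, 9.16 in U87MG and 9.61 in A172. INSR, the insulin receptor, averaged 5.23 in T98G, 5.72 in U87MG and 5.88 in A172. None of the 3 tested receptors passed after the mimic: IGF1R changed by 0.08 (limma adjusted p = 0.768), INSR by -0.08 (0.827) and IGF2R by -0.02 (0.956).

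The proteases that cut IGF binding proteins, and their inhibitors, differed between lines. PAPPA, which cuts IGFBP4, read 4.10 and 4.35 in T98G, 7.72 and 7.75 in U87MG, and 3.67 and 3.91 in A172. It was thus high in U87MG, where IGFBP4 was low, as it was in A172, and near or below the filter level in the other lines. STC1 and STC2, stanniocalcins that inhibit PAPPA, had different patterns. STC1 averaged 8.96 in T98G, 11.10 in U87MG and 7.88 in A172, whereas STC2 averaged 8.32 in T98G, 7.82 in U87MG and 4.23 in A172. IGFALS, the third part of the larger serum complex, ranged from 5.87 to 6.24 between line means.

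After the mimic 0 of the 9 tested genes of this list passed. STC2 had the lowest p of all 44 related genes, with 8.14 in T98G, 7.68 in U87MG and 4.15 in A172 on mimic arrays, against 8.49, 7.96 and 4.31 on control arrays. It was lower in 3 of 3 lines, by -0.26 ± 0.10 (SD, n = 3; limma adjusted p = 0.246). PAPPA changed by -0.17 ± 0.12 (limma adjusted p = 0.465), with -0.25 in T98G, -0.035 in U87MG and -0.23 in A172. In T98G and A172 the PAPPA signal was near or below the filter level, where small differences say little.

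In 12 of the 44 related genes, 1 line led both others by at least 1. The share over all tested genes was 6.9% (1.93% for T98G, 2.64% for U87MG and 2.33% for A172). The lists were chosen with earlier results of these data known, and these 12 genes were picked out after their values were seen. Among them PAPPA passed the filter only through U87MG, as its means of 4.23 in T98G and 3.79 in A172 were below the filter level. Nothing is therefore read from the count of 12. T98G led in 4, namely C1S, a complement protease that cuts IGFBP5, CCN1 and CCN4, matricellular proteins with an IGFBP-like domain, and THBS1, a matrix glycoprotein that binds IGFBP5. U87MG led in 6, namely PAPPA, STC1, HTRA1 and ADAM12, the last 2 being proteases that cut IGFBP5, GRB10, an adaptor of the insulin and IGF receptors, and SPP1, or osteopontin. A172 led in 2, CCN2 and CRIM1, both with an IGFBP-like domain. C1S read 9.85 and 9.98 in T98G, 7.53 and 7.32 in U87MG, and 8.08 and 8.09 in A172. HTRA1 read 7.24 and 7.27 in T98G, 9.53 and 9.49 in U87MG, and 7.38 and 7.35 in A172. THBS1 averaged 11.96 in T98G, 7.40 in U87MG and 9.29 in A172.

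**Figure D5:**
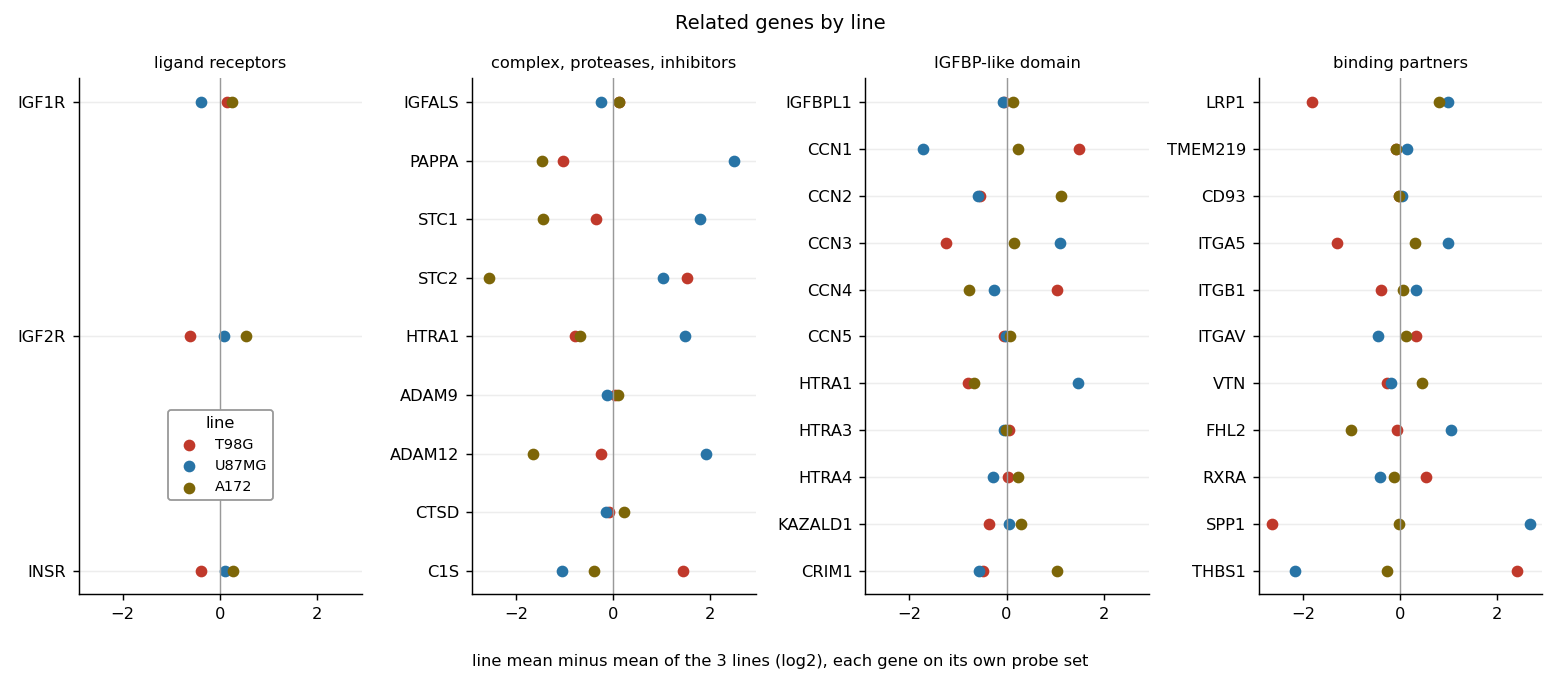
Mean of each line minus the mean of the 3 lines (log2, horizontal axis) for tested genes of 4 related lists, each on its own probe set. PAPPA, STC1, HTRA1, ADAM12 and SPP1 are set to the right in U87MG, and C1S, CCN1, CCN4 and THBS1 in T98G.

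Among genes of receptor signalling, IRS1, the adaptor that links the receptors to phosphoinositide 3-kinase, averaged 6.03 in T98G, 6.98 in U87MG and 5.00 in A172. IRS2, its relative, ranged from 5.37 to 5.69 between line means. After the mimic 0 of 11 passed: PIK3CB, a catalytic subunit of phosphoinositide 3-kinase, changed by -0.26 ± 0.12 (limma adjusted p = 0.268) and IRS2 by 0.13 ± 0.03 (adjusted p = 0.56 with limma). Of 11 tested genes with an IGFBP-like domain 0 passed: IGFBPL1, the nearest relative of the family among them, changed by -0.24 ± 0.11 (limma adjusted p = 0.294) and HTRA3 by -0.14 ± 0.05 (limma adjusted p = 0.524). Of 11 binding partners 0 passed: ITGAV, an integrin subunit, changed by 0.10 ± 0.04 (limma adjusted p = 0.652), and LRP1, an endocytic receptor that binds IGFBP3, by -0.07 ± 0.17 (limma adjusted p = 0.809). By line, LRP1 averaged 6.19 in T98G, 8.98 in U87MG and 8.80 in A172. IGFBP3 averaged 9.25, 6.85 and 8.76 in the same lines, so A172 was high in both genes. A relation between them was not tested.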

How the data were processed

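The authors deposited 1 table of log2 values for 33297 probe sets on 6 arrays. Per the submitters' processing notes these are RMA values made with oligo in R 3.0.1; no filter or batch step is named in the sources used here. Symbols came from the platform annotation (19460 probe sets with 1 symbol), updated through RefSeq gene identifiers. The brightest probe set stood for a gene, and the lowest 25% of 18417 genes by mean were left out. Mimic and control were compared with limma 3.58.1 in R 4.3.3 (lmFit, eBayes, two-sided, Benjamini-Hochberg), with the line as a block, since each line gave both arrays. Deviations from the group means correlated within a line with r from 0.951 to 0.958. The test was checked on simulated data. The residual degrees of freedom were 2, so the number of arrays limits precision. Scan batches are not known. Members, gene lists and tests were chosen with earlier results of these data known. Genes named were the members, fixed pathway genes, the lowest p values of each list, the genes most like IGFBP5 and neighbours in RefSeq order; others are said to be picked later. Alternatives changed the filter, variance prior, block, scaling, probe set rule and arrays.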

Additional observations from a re-analysis of the deposited data

Results flagged for a closer look

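For 5 of the 6 tested members the mimic minus control difference had opposite signs in different lines. With 1 pair of arrays per line this could not be tested, and 65.7% of all tested genes had mixed signs. The span from the lowest to the highest line was 0.83 in IGFBP4, from T98G to U87MG, and 0.62 in IGFBP1, from A172 to T98G. It was 0.53 in IGFBP5, from T98G to A172, 0.49 in IGFBP3, from T98G to U87MG, and 0.26 in IGFBP2, from T98G to A172. The median span over all tested genes was 0.25.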

How the results depend on the processing

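In all 10 alternative fits 0 members and 0 related genes passed limma's adjusted threshold, and the lowest adjusted p of a member was 0.307. At an unadjusted p under 0.05 there was 1 member in 3 of these fits (a variance prior that follows expression, without T98G and without U87MG) and 0 in the others; of the related genes, 0 to 3 reached it. Without the replicate block (the line left out of the model) 0 members passed and 0 had an unadjusted p under 0.05. Over all genes the count of 153 became 60 with no filter, 360 with the lowest 50% left out, 471 with the prior that follows expression, 64 without A172, and 0 without U87MG or the block (1339 and 127 at an unadjusted p under 0.05). Of 60 member changes under these alternatives, 54 kept their sign. The 6 that turned came from leaving out a line, with ranges of -0.30 to 0.0161 for IGFBP1, -0.12 to 0.0121 for IGFBP2, -0.10 to 0.14 for IGFBP3 and -0.18 to 0.0834 for IGFBP5; that of IGFBP4 was -0.49 to -0.08. By line, the highest line of all 6 members stayed clear of the others with arrays centred on their medians and with repeated quantile normalization; the probe set rule could not change a member. On control arrays alone, with 1 array per line, the T98G gap was 6.14 in IGFBP5, against 5.62 on all arrays, 1.75 in IGFBP4 (1.26 on mimic arrays), against 1.01, 0.52 in IGFBP2, against 0.26, and 0.63 in IGFBP3, against 0.35. With repeated quantile normalization that of IGFBP4 was 0.97, under the bound of 1.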
